A study of Homo sapiens with 4 samples.

Results

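The genes described here encode the Rag GTPases and the proteins that hold and switch them at the lysosome. They are RRAGA, RRAGB, RRAGC and RRAGD for the 4 Rag GTPases, LAMTOR1 to LAMTOR5 for the 5 subunits of the Ragulator complex, and FLCN for folliculin. These 10 genes were taken by name from the 28775 genes of the count table, and the group was chosen by the higher RRAGA mRNA in the MORC2 KO samples. The RRAGA difference is therefore given as a description, with no p-value and as support for nothing, and the values of the other 9 genes come from the same contrast. RNA-seq of polyadenylated RNA was performed on 4 samples of HEK293T, a transformed human embryonic kidney cell line. MORC2 KO replicates 1 and 2 were edited with Cas9 protein and a different MORC2 gRNA each (knock-out sgRNA 1 and 2), and were kept as bulk populations rather than single clones. The gRNA sequences given in the methods overlap almost wholly, so the replicates were cut at nearly the same place. WT replicates 1 and 2 received no sgRNA, and no further allele or treatment is given for any sample. The comparison asks how gene expression differs when MORC2, a chromatin-remodelling ATPase that compacts DNA in vitro, is knocked out.

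Rag GTPases work as pairs, in which RagA or RagB binds RagC or RagD. When amino acids are plentiful, the pair takes up its active nucleotide state, with GTP on RagA or RagB and GDP on RagC or RagD, and brings the growth kinase complex mTORC1 to the lysosome surface. Ragulator is the scaffold that anchors the Rag pair to that membrane, GATOR1 switches RagA and RagB off, and folliculin with FNIP1 or FNIP2 acts on RagC and RagD. The RagC and RagD side also binds TFEB, TFE3 and MITF, transcription factors of lysosomal genes.

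The counts summed to between 53970043 and 64312514 per sample, and the 10 members had between 777 and 5157 counts each, so every member passed the filter on low counts. The targeted gene MORC2 had 3064 and 3637 counts in MORC2 KO and 5131 and 4669 in WT, with an adjusted p of 1.37e-04 in edgeR at a log2 fold change of -0.71, so its RNA was reduced but still present. In such populations, fewer cells with the transcript and less of it per cell cannot be told apart. Of 7 genes used as markers of HEK293T cells, NEFL, INA and NEFM had 319 to 4914 counts, and PAX2, LHX1, KRT8 and KRT18 had 27 to 408. Of 7 markers of blood, endothelial, stromal and liver cells, 6 had at most 5 counts in any sample, with COL1A2 at 0 in all 4, and ALB had 6 to 14. The MORC2 KO libraries differed more from each other (chi-square 16.8 per degree of freedom) than those of WT (6.56).

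RRAGA, which encodes RagA, was higher in both MORC2 KO samples. Its counts were 4790 and 5157 in MORC2 KO replicates 1 and 2, and 3405 and 3139 in WT replicates 1 and 2. On the CPM scale, in which counts are divided by TMM-scaled library size, RRAGA had 80.1 and 78.1 in MORC2 KO against 57.2 and 59.0 in WT. The groups did not overlap, and replicates of a genotype lay close together. MORC2 KO samples averaged 79.1 ± 1.46 CPM (SD, n = 2) and WT samples 58.1 ± 1.24 CPM (SD, n = 2). The fitted change was 1.36-fold, or 0.44 on the log2 scale (standard error 0.06). Because RRAGA was chosen for this rise, its size may be overstated and the standard error gives no test of it. Taken singly against the mean of WT, MORC2 KO replicate 1 was 0.46 and replicate 2 was 0.43 higher on the log2 scale.

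**Figure D1:**
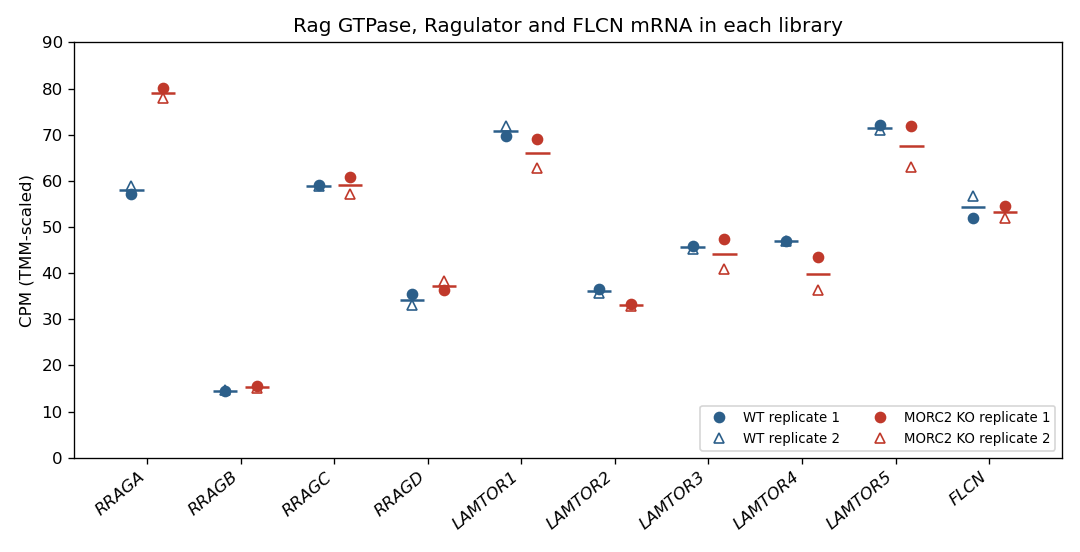
TMM-scaled CPM (linear vertical axis from 0) of the 10 genes in each of the 4 libraries, with blue for WT, red for MORC2 KO, filled circles for replicate 1, open triangles for replicate 2 and a horizontal line for each group's mean. RRAGA lies near 58.1 in WT and 79.1 in MORC2 KO, while the LAMTOR genes show their lowest values in MORC2 KO replicate 2.

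Over all 16675 genes tested, 98 (0.588%) were called higher and 5 (0.0300%) lower in MORC2 KO at an adjusted p under 0.05 in edgeR's quasi-likelihood test. RRAGA, which led to the choice of the members, is among those called higher, and this is not read as a test of it. None of the other 9 members was called in either direction. An unadjusted p under 0.05 was found for 1 of the 9, LAMTOR4, and for 14.3% of all tested genes. The adjusted p-values of the other 9 members lay between 0.232 and 0.988 in edgeR. Their median log2 fold change was -0.05, against 0.01 over all tested genes. Both MORC2 KO samples lay above both WT samples in RRAGA, RRAGB and RRAGD (3 of 10), which 24.1% of all tested genes did as well. They lay below both WT samples in LAMTOR1, LAMTOR2 and LAMTOR4 (3 of 10), as 23.4% of all tested genes did. The groups overlapped in the remaining 4 members. Since RRAGA led to the choice of the members, nothing is read from these counts.

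RRAGB encodes RagB, the closest relative of RagA. It had 15.5 and 15.2 CPM in MORC2 KO against 14.4 and 14.6 in WT. The samples did not overlap, but the difference was small, at 0.08 on the log2 scale with a 95% interval from -0.09 to 0.25. On a scale of CPM per kb of exon, which allows levels of different genes to be compared, RRAGA exceeded RRAGB by 6.14 ± 0.0672 times (SD, n = 2) in WT and by 7.91 ± 0.0459 times (SD, n = 2) in MORC2 KO. RRAGA thus made up 85.9% and 86.1% of the summed RRAGA and RRAGB level in the WT samples, and 88.8% and 88.7% in the MORC2 KO samples.

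RRAGA and RRAGB differ in gene structure. In the count table, on T2T-CHM13v2.0, RRAGA (Entrez 10670) has 1 exon of 1599 bp on chromosome 9, from 19062292 to 19063890 on the plus strand. RRAGB (Entrez 10325) has 13 exons with 2449 bp of exonic sequence on chromosome X, from 55010926 to 55051952 on the plus strand. RRAGA was the only member with 1 exon, and the other 9 had between 4 and 17. Neither gene has exonic bases that overlap another gene of the table.

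The counting kept reads that map to several places, so the likeness of the RRAGA and RRAGB sequences bears on their values. The coding sequences, taken from transcripts RRAGA-201 and RRAGB-201 of GENCODE 29, share 83.9% of 942 aligned bases, and the longest identical run is 32 bases. None of the 1525 windows of 65 bases, the read length, in RRAGA-201 occurs in a transcript of another gene of GENCODE 29, and within the aligned coding sequence the closest windows of RRAGA and RRAGB differ at 5 bases. The 90 coding bases in which the pair is most alike are shown to give the scale of this likeness. Capitals mark the 9 bases that differ, and the stretch runs from base 370 to 459 of the RRAGA coding sequence and from 553 to 642 in RRAGB.
RRAGA: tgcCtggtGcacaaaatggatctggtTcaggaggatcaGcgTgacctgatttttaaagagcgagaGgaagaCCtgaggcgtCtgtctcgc
RRAGB: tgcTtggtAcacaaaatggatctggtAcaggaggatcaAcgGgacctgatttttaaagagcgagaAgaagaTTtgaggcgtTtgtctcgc
The differences are spread along the stretch, so a read of 65 bases from it crosses several of them. In the same comparison RRAGC and RRAGD share 74.1% of their aligned coding bases, while RRAGA shares 50.3% with RRAGC and 50.9% with RRAGD.

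RRAGC and RRAGD encode the partners in the Rag pair. RRAGC had 60.9 and 57.2 CPM in MORC2 KO and 59.0 and 58.8 in WT, so the MORC2 KO samples lay on either side of WT. Its log2 fold change was 0.003 with a 95% interval from -0.13 to 0.13, and its sign changed with the scaling. RRAGD is a known target gene of the TFEB family and had 36.3 and 38.4 CPM in MORC2 KO against 35.4 and 33.0 in WT. Both MORC2 KO samples were the higher ones, with a log2 fold change of 0.13 and a 95% interval from -0.02 to 0.27.

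Summed per kb, the transcripts for RagA and RagB came to 42.3 ± 0.837 CPM per kb (SD, n = 2) in WT and 55.7 ± 0.989 (SD, n = 2) in MORC2 KO. Those for RagC and RagD came to 28.9 ± 0.394 (SD, n = 2) and 29.6 ± 0.672 (SD, n = 2). The ratio of the first sum to the second was 1.46 ± 0.0489 (SD, n = 2) in WT, and 1.88 ± 0.00931 (SD, n = 2) in MORC2 KO. RRAGA held most of the first sum in each sample, and RRAGB added between 5.87 and 6.31 CPM per kb in each sample.

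**Figure D2:**
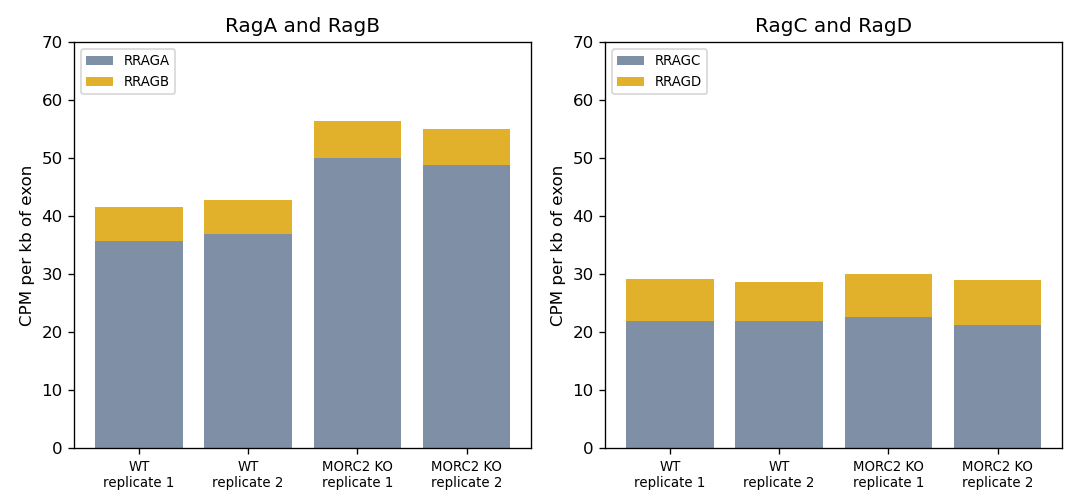
Stacked levels in CPM per kb of exon in each library, for RRAGA with RRAGB (left) and RRAGC with RRAGD (right), both on an axis that starts at 0. The left bars rise from 41.7 and 42.8 in WT to 56.4 and 55.0 in MORC2 KO through the RRAGA segment, while the right bars stay between 28.6 and 30.1.

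None of the 5 genes tested around RRAGA was called. SAXO1, on the opposite strand and 88 bp away, had 1 to 7 counts in every sample and was too low to test. HAUS6, a subunit of the augmin complex of the mitotic spindle, lies 2116 bp away on the other side, with 175 and 170.2 CPM in MORC2 KO and 177 and 178 in WT. The log2 fold change of HAUS6 was -0.04, with an adjusted p of 0.776 in edgeR. Within 500000 bp of the start of RRAGA, PLIN2, RPS6, DENND4C and ACER2 were tested as well, with log2 fold changes of -0.13, -0.09, 0.06 and -0.05 and adjusted p-values of 0.375, 0.618, 0.681 and 0.892 in edgeR.

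The 5 tested genes whose profile over the 4 samples was nearest to that of RRAGA were ZNF793, TAF7, FLRT1, TSPYL1 and CELF3. Nearness was measured by the root mean square difference in centred log2 CPM, which was 0.00830, 0.0171, 0.0243, 0.0280 and 0.0282. TAF7 and TSPYL1 are genes with 1 exon, and the other 3 have 4 to 13 exons and at most 5.37 CPM in any sample. With only 4 samples in 2 genotypes, this nearness says little more than that these genes differed by a like amount.

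The Ragulator subunits had fitted log2 fold changes below 0 in MORC2 KO in all 5 cases with each scaling, and none was called. Over all tested genes, 51.5% had a log2 fold change above 0. A change of scaling shifts all genes by nearly the same amount, so it is not a separate check of these signs. LAMTOR1 is the lipid-anchored subunit that wraps around the others, which form the pairs LAMTOR2 with LAMTOR3 and LAMTOR4 with LAMTOR5. LAMTOR4 differed most, with 43.5 and 36.3 CPM in MORC2 KO against 47.0 and 46.9 in WT. Both MORC2 KO samples were below WT, by 0.11 in replicate 1 and 0.37 in replicate 2 on the log2 scale. The fitted log2 fold change was -0.24 with a 95% interval from -0.41 to -0.07, which does not account for the number of genes tested (adjusted p = 0.232 in edgeR).

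LAMTOR2 had 33.2 and 32.9 CPM in MORC2 KO against 36.6 and 35.8 in WT. Its MORC2 KO samples lay close together and both below WT, at -0.13 on the log2 scale. LAMTOR1 had 69.1 and 62.8 CPM against 69.7 and 71.8, a log2 fold change of -0.10. In this gene MORC2 KO replicate 1 lay 0.03 and replicate 2 lay 0.17 under the mean of WT on the log2 scale. The groups overlapped in LAMTOR3, with 47.3 and 40.9 CPM in MORC2 KO against 45.9 and 45.3 in WT. They overlapped in LAMTOR5 too, with 71.8 and 63.1 CPM against 72.0 and 71.0. The log2 fold changes were -0.05 and -0.08, and their 95% intervals reached from -0.20 to 0.11 and from -0.23 to 0.06.

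MORC2 KO replicate 2 was the lowest library in all 5 LAMTOR genes. The drop from MORC2 KO replicate 1 to replicate 2 ranged from 0.02 in LAMTOR2 to 0.26 in LAMTOR4 on the log2 scale, while WT replicates differed by at most 0.04 in these genes. Without MORC2 KO replicate 2, the log2 fold changes of LAMTOR3 and LAMTOR5 became 0.06 and 0.01, and that of LAMTOR4 shrank to -0.11. Without MORC2 KO replicate 1, the median of the 5 genes went from -0.10 to -0.18 and LAMTOR1, LAMTOR3, LAMTOR4 and LAMTOR5 were called lower. In that fit 2117 of 17129 genes (12.4%) were called lower and 1397 higher, against 30 of 16937 (0.177%) lower and 142 higher without MORC2 KO replicate 2. The cause of this gap was not tested. RRAGA lay at 0.41 without MORC2 KO replicate 1 and 0.47 without MORC2 KO replicate 2.

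**Figure D3:**
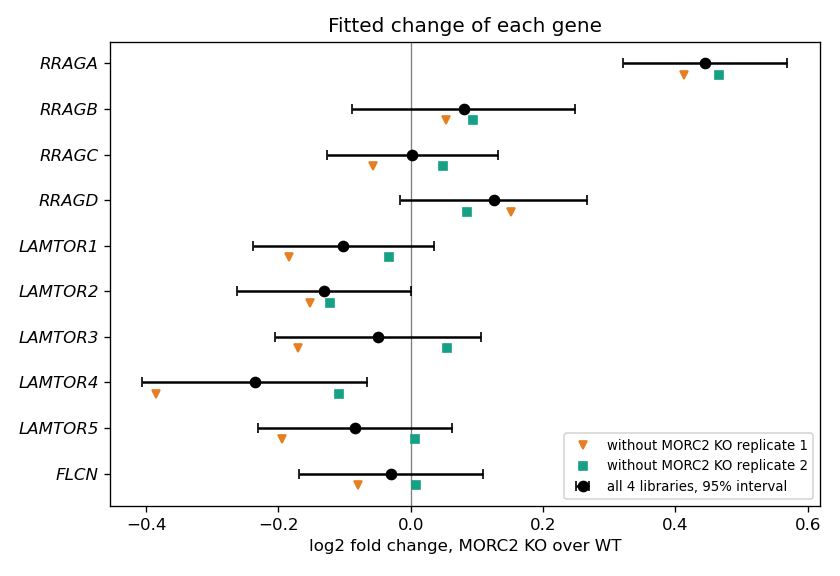
Fitted log2 fold change of MORC2 KO over WT (horizontal axis) for each gene, with black points and 95% intervals for all 4 libraries, orange triangles without MORC2 KO replicate 1 and green squares without MORC2 KO replicate 2. RRAGA lies at 0.41 and 0.47 in the fits without a MORC2 KO library, while RRAGC, LAMTOR3, LAMTOR5 and FLCN change sign with the MORC2 KO library that is left out. The interval of RRAGA is not a test, because its rise led to the choice of the members.

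FLCN, the gene of folliculin, had 54.6 and 51.9 CPM in MORC2 KO and 51.9 and 56.8 in WT. The samples overlapped, and the log2 fold change was -0.03 with a 95% interval from -0.17 to 0.11. The sign changed with library size alone as the scaling, and without MORC2 KO replicate 2 or WT replicate 2. The interval leaves room for a difference of about the size seen in LAMTOR2, but not for that of RRAGA.

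The levels of the members were ordered in WT on the scale of CPM per kb of exon. The order depends on the annotated length, such as 6181 bp for FLCN against 3638 bases in its transcript FLCN-201. LAMTOR5 was highest at 84.1 ± 0.854 (SD, n = 2), followed by LAMTOR1 at 65.0 ± 1.36, LAMTOR4 at 64.2 ± 0.158 and LAMTOR2 at 58.3 ± 0.923. RRAGA came next at 36.3 ± 0.776 and RRAGC at 22.0 ± 0.0567. LAMTOR3, FLCN, RRAGD and RRAGB closed the order at 10.6, 8.80, 6.95 and 5.92. Among neighbours in this order, LAMTOR1 and LAMTOR4 overlapped in their WT samples and the others did not. MORC2 KO samples gave the same order of means, in which RRAGA stood at 49.5 and LAMTOR2, just above it, at 53.2.

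LAMTOR3 therefore stood 7.90 ± 0.0114 times (SD, n = 2) below LAMTOR5 per kb in WT, although the subunits are present in equal numbers in the complex. Its 4282 bp of exonic sequence include 1 exon of 3732 bp, while the other LAMTOR genes have 621 to 1089 bp. Without scaling to length, LAMTOR3 and LAMTOR4 had 45.6 and 46.9 CPM in WT. Which 3′ end LAMTOR3 uses in these cells was not tested. LAMTOR5 shares 116 of its 850 exonic bp (13.6%) with the antisense gene LAMTOR5-AS1, and read pairs there were not assigned to either gene. LAMTOR5-AS1 itself had 18 to 48 counts.

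Promoter sequences of RefSeq (GRCh38.p14), from 250 bases before to 50 after each start, were found for 8 of the 10 members. RRAGA and RRAGD had no such sequence and were not searched. The others were searched on both strands for CACGTG, the core of the site that TFEB family factors bind. It was present in 4 of the 8 (RRAGB, RRAGC, LAMTOR1 and LAMTOR4), and in 7.26% of all 35116 promoters of the table. The 8 members had 10 promoters and were counted by gene, so these shares are not in like units. Among the further pathway genes described below, 40 had a promoter sequence and 7 of these held CACGTG. In all 4 a T precedes it on one of the strands, giving TCACGTG, which overlaps CACGTG and occurs in 3.71% of all promoters. The windows before the start are shown with the 6 bases in capitals, in the direction of the gene, as a feature that the choice of members did not use.
RRAGB, chrX:55717610-55717663, plus strand: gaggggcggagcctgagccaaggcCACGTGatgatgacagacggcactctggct
RRAGB, chrX:55717700-55717748, plus strand: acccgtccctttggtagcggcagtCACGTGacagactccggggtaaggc
RRAGC, chr1:38859855-38859908, minus strand: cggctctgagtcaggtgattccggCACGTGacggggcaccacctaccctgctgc
LAMTOR1, chr11:72103433-72103486, minus strand: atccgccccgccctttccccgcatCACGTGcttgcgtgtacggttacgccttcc
LAMTOR4, chr7:100148880-100148917, plus strand: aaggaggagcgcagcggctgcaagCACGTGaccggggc
The motif begins 115 and 25 bases before the start of RRAGB, 112 before that of RRAGC, 165 before that of LAMTOR1 and 14 before that of LAMTOR4. These genes had log2 fold changes of 0.08, 0.003, -0.10 and -0.24. A match of letters does not show that a factor binds there.

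The rest of the pathway was followed in 53 genes in 10 lists, all of which passed the filter on low counts. Of these, 1 was called higher (TFEC) and none lower in edgeR, and the median log2 fold change was -0.01 against 0.01 over all tested genes. An unadjusted p under 0.05 was found for 8 of the 53, a share near the 14.3% of all tested genes. FNIP1 and FNIP2, the partners of folliculin, had log2 fold changes of 0.07 and 0.002. The 3 GATOR1 genes, which inactivate RagA and RagB, lay between 0.02 and 0.09, with DEPDC5 at 0.09 (adjusted p = 0.585 in edgeR). The 5 GATOR2 genes, which oppose GATOR1, lay between -0.11 in SEC13 (adjusted p = 0.450 in edgeR) and 0.08. The 4 genes of KICSTOR, which tethers GATOR1 to lysosomes, lay between 0.01 and 0.16, with ITFG2 at 0.16 (adjusted p = 0.336 in edgeR).

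Among the 8 amino acid sensor genes, SESN2 stood nearest to the threshold. It encodes sestrin 2, a leucine sensor that acts on GATOR2 and is induced in amino acid stress. SESN2 had 141 and 152 CPM in MORC2 KO against 120.3 and 124 in WT, so both MORC2 KO samples were the higher ones. At a log2 fold change of 0.26, its adjusted p of 0.104 in edgeR did not pass the threshold. SESN2 was called with DESeq2 (adjusted p = 0.0471), and in edgeR with offsets for abundance (adjusted p = 0.0451) and without a filter on low counts (adjusted p = 3.91e-03). It was not called in edgeR with RLE scaling (adjusted p = 0.114), library size alone (adjusted p = 0.0501), the newer edgeR form (adjusted p = 0.0986) or the replicate block (adjusted p = 0.105). The log2 fold change of SESN2 was 0.30 without MORC2 KO replicate 1 and 0.20 without MORC2 KO replicate 2. It was 0.23 without WT replicate 1 and 0.29 without WT replicate 2. The other 7 sensor genes lay between -0.10 and 0.19, and the related SESN1 and SESN3 were at -0.01 and 0.06.

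SKP2, whose product like that of RNF152 takes part in attaching ubiquitin to RagA, had a log2 fold change of -0.16 (adjusted p = 0.307 in edgeR). RNF152 was at 0.03. TSC1, TSC2, TBC1D7 and RHEB, which control mTORC1 beside the Rag pair, lay between -0.02 and 0.10, with TSC2 at 0.10 (adjusted p = 0.497 in edgeR). Of the 5 mTORC1 genes, MTOR was at 0.01 and the other 4 between -0.10 and -0.08, with RPTOR nearest to the threshold (adjusted p = 0.432 in edgeR). None of the genes in these 3 lists was called.

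The list for the V-ATPase, the lysosomal proton pump that binds Ragulator, held 16 genes. None was called, and 3 had an unadjusted p under 0.05 (14.3% of all tested genes did). A log2 fold change below 0 was found for 13, with a median of -0.10. Over all tested genes, 51.5% had a log2 fold change above 0. The count below 0 was 13 or 14 with TMM, RLE scaling and library size alone. It was 15 without MORC2 KO replicate 1 and 10 without MORC2 KO replicate 2. Without WT replicate 1 it was 14, and without WT replicate 2 it was 13. ATP6V1F had the smallest p, with 101 and 83.0 CPM in MORC2 KO against 109.7 and 108 in WT. Its log2 fold change was -0.25 (adjusted p = 0.216 in edgeR). Without MORC2 KO replicate 1, 11 of the 16 were called lower in edgeR, in a fit that called 12.4% of all genes lower. Without MORC2 KO replicate 2, none of the 16 was called in edgeR, and 0.177% of all genes were called lower.

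The MiT/TFE genes are TFEB, TFE3, MITF and TFEC. The first 3 encode the factors named above that bind the RagC and RagD side. TFEC was at 2.64 and 3.12 CPM in MORC2 KO against 0.487 and 0.357 in WT. Both MORC2 KO samples were far above WT, by 2.76 on the log2 scale (adjusted p = 1.37e-04 in edgeR). TFE3, MITF and TFEB were at -0.05, -0.01 and -0.33, and none of these was called (smallest adjusted p = 0.326 in edgeR, for TFEB). TFE3 had 3096 to 3691 counts per sample, against 19 to 206 for TFEC.

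**Figure D4:**
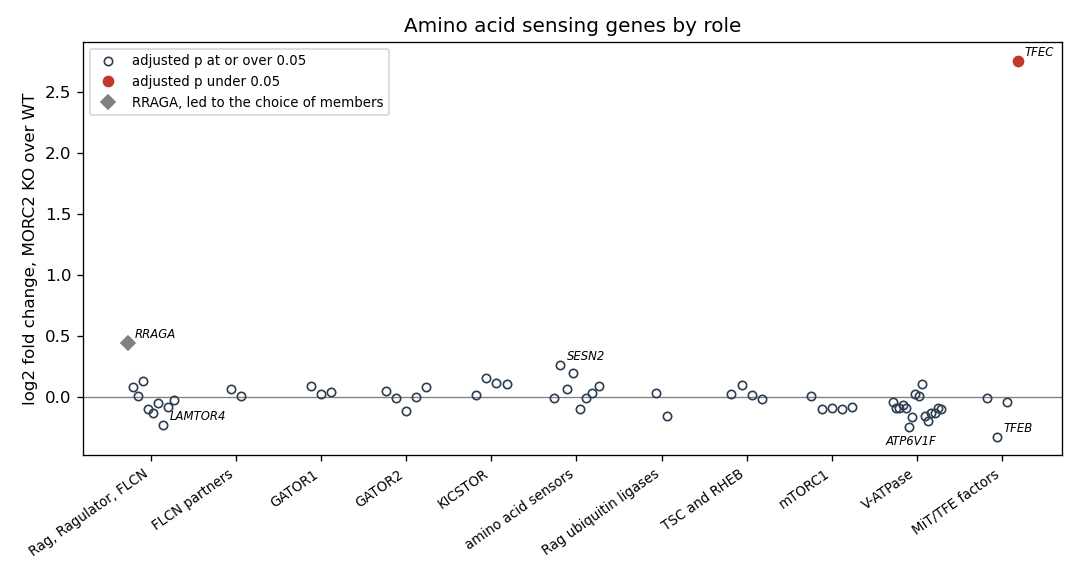
Log2 fold change of MORC2 KO over WT for the 10 members and for 53 further amino acid sensing genes in 10 lists, with a grey diamond for RRAGA (0.44), which led to the choice of the members, a filled red point for an adjusted p under 0.05 in edgeR and open points for the rest. TFEC at 2.76 is the red point, and the other genes lie between -0.33 and 0.26.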

How the data were processed

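Per the file headers and the methods, read pairs of 65 bp were aligned by the authors with subread 2.0.6 (genome T2T-CHM13v2.0), and featureCounts assigned them to RefSeq genes. The deposited values are raw counts per gene. The counting ignored strand, kept multi-mapping reads and dropped pairs that overlap several genes. Symbols were matched by Entrez identifier for 28763 of 28775 genes.

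The genotypes were compared across all 16675 genes left by filterByExpr, with TMM factors (0.986 to 1.03), edgeR 4.0.16 in its older quasi-likelihood form (R 4.3.3) and Benjamini-Hochberg adjustment at 0.05. Each standard error was taken as the fitted change over the root of F, and intervals use the moderated degrees of freedom. CPM values are TMM-scaled. Coding sequences were aligned with Biopython 1.88. The scripts were tested on simulated data.

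The members and lists were chosen with earlier results of these data known. The genes named were the members, the called gene and the gene with the smallest p in each list, the 5 genes nearest to RRAGA, MORC2, and genes that overlap a member. The neighbours of RRAGA, the other genes of the pathway lists and the markers were also named, and this was decided after their values were seen.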

Additional observations from a re-analysis of the deposited data

How the results depend on the processing

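The alternatives were RLE scaling, library size alone, no filter on low counts, the newer edgeR form, DESeq2 1.42.0, offsets for a loess trend on abundance, the replicate block, and leaving out each sample, where the lone sample of a genotype is assumed to vary like the other genotype. The log2 fold change of RRAGA was 0.48 with library size alone and 0.41 to 0.47 with each sample left out. The count of members called, which holds RRAGA by the choice of members, went from 1 to 2 without the filter (with LAMTOR4), and 1 to 5 with each sample left out. The 1 pathway gene called became 3 without the filter, 2 with DESeq2, 2 with loess offsets, and 1 to 20 with each sample left out, the 20 without MORC2 KO replicate 1. With the replicate block, 1 member and 1 pathway gene were called, and no call among these genes changed, while calls over all genes went from 98 higher and 5 lower to 237 and 42. The labels state no pairing of same-numbered samples, and the deviations of same-numbered samples from their group means correlated at -0.12. With 2 samples per genotype, the crossed pairing has the same correlation with the opposite sign. With the replicate numbers crossed, chosen after seeing the data, 2 members and 7 pathway genes were called, beside 903 genes higher and 809 lower of all 16675. For the fit without MORC2 KO replicate 1, the calls over all genes are given with the LAMTOR genes above. The pathway count of that fit is not read as a pathway effect, and none was tested. Over all genes, 463 were called higher and 182 lower without the filter. The totals were 115 higher and 17 lower with DESeq2, and 91 higher and 8 lower with loess offsets. The cause of these shifts was not tested. All members had at least 777 counts, and the spread was estimated from 2 samples per genotype. The part of depth in the standard errors was not tested.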
